A study of Homo sapiens with 15 samples.

Results

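The integrated stress response regulators described here are 9 genes: ATF4, ATF3, DDIT3, CEBPB, CEBPG, TRIB3, PPP1R15A, CHAC1 and SESN2. They were chosen by symbol from the 12261 genes of the deposited table, in which all 9 were listed. Each row of that table holds 1 Ensembl transcript per gene, so every value below is the level of that transcript. They were measured in HEK-293 Trex, a widely used cell line of human embryonic kidney origin. Cells expressed UPF1 isoform 1 (UPF1-1) or isoform 2 (UPF1-2) with a CLIP tag, or GFP, and all 3 lines received 200 ng/mL doxycycline to induce the transgene. UPF1 is the RNA helicase at the centre of nonsense-mediated mRNA decay (NMD), and the length of a regulatory loop sets its isoforms apart. The 15 libraries form 5 groups of 3: total RNA of each line, and RNA recovered with each UPF1 isoform by immunoprecipitation (IP). A construct and its line cannot be told apart, and whether a line was 1 clone is not given in the sources used here. An IP from GFP cells was not analysed here, so recovery was measured against total RNA.

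In the integrated stress response, kinases that sense amino acid shortage, misfolded protein in the endoplasmic reticulum (ER), double-stranded RNA or heme shortage phosphorylate the translation factor eIF2. Bulk protein synthesis then falls, while mRNAs with upstream open reading frames, ATF4 among them, are translated better. ATF4 is a basic leucine zipper (bZIP) transcription factor that induces further regulators, including ATF3 and DDIT3, and effectors of feedback and cell death. Upstream reading frames can also mark an mRNA for NMD, and the mRNAs of ATF4, ATF3 and DDIT3 are among the known NMD targets.

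ATF4 and its partners are known to bind the C/EBP-ATF response element (CARE), searched here as TGATGNAA, and the cAMP response element (CRE), searched as TGACGTCA. The search covered both strands of the 250 bases before each start in a RefSeq promoter table on GRCh38.p14, which held 16 windows for the 9 genes, some of them overlapping. A CARE match was found in 3 member windows, and in 3.14% of all 35116 windows. A CRE match was found in 1 member window, and in 1.65% of all windows. The other motif searched, the ER stress response element (CCAAT and CCACG with 9 bases between them), matched no member window and 0.074% of all windows. The 30 bases around each match are shown so that the members that hold these letters can be compared by sequence. Capitals mark the match, all stretches are on the plus strand, and the positions of the stretches are chr1:212565205-212565234, chr19:33374060-33374089, chr15:40953251-40953280 and chr19:48872352-48872381 in the order printed.
ATF3: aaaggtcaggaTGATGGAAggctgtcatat
CEBPG: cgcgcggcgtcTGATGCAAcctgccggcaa
CHAC1: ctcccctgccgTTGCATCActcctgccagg
PPP1R15A: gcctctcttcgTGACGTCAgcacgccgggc
Counted from the start, the match lies at -191 to -184 in ATF3 (in 1 of its 2 windows), at -42 to -35 in CEBPG (also in 1 of 2), at -209 to -202 in CHAC1, where it is on the opposite strand, and at -58 to -51 in PPP1R15A. TRIB3, whose mRNA changed most, had none of these letters in its windows, which says nothing about regions outside them. A match is a description of the letters and not a binding site.

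UPF1 itself was checked first. It was at 3.24 to 8.57 TPM (the deposited unit, a share of the library's transcripts corrected for length) in GFP total RNA, 94.5 to 186 TPM in UPF1-1 total RNA and 68.9 to 171 TPM in UPF1-2 total RNA, so both UPF1 lines stood above the GFP line. Replicate 3 stood apart from replicates 1 and 2 in all groups: in total RNA the listed genes held 17.1 to 19.0% of the TPM scale there, against 12.2 to 14.9%. Comparisons were made within the replicate number, and values without replicate 3 are given where they differ. Values were log2(TPM + 0.5) with library medians set equal, fitted over all genes by limma, and a gene was called at a Benjamini-Hochberg adjusted p under 0.05. Log2 differences below are on this scale, which understates changes of low genes. In these bulk samples a change in every cell and a change in the share of cells that express a gene cannot be told apart.

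At baseline the 9 mRNAs spanned a wide range. ATF4 was by far the most abundant, at 119 ± 28.0 TPM (SD, n = 3) in GFP total RNA, rank 188 of 12261 genes. CEBPG followed at 17.9 ± 0.58 TPM. DDIT3 (7.86 ± 1.08), SESN2 (5.85 ± 3.12), TRIB3 (5.41 ± 0.86), ATF3 (4.75 ± 1.89), PPP1R15A (3.46 ± 2.76 TPM) and CEBPB (2.41 to 4.03 TPM) were low, and neighbours in this order overlapped in their replicates. CHAC1 was lowest, at 1.63 ± 0.48 TPM, rank 6648. All 9 passed the filter on low values, which asked for at least 1 TPM in at least 3 libraries.

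With UPF1-1, the transcription factors ATF3, DDIT3 and CEBPB, the pseudokinase gene TRIB3 and the phosphatase subunit gene PPP1R15A rose by between 1.93-fold and 2.93-fold over GFP total RNA. ATF4, CHAC1 and SESN2 rose by 1.23-fold to 1.28-fold, and CEBPG did not pass the test. These folds come from the fitted log2 differences and are not ratios of TPM. For TRIB3 the fitted log2 difference was 1.55, and the authors' deposited log2 fold change was 1.73. In all, 8 of 9 were called higher, where 8.38% of the 9325 genes tested were called higher and 7.79% lower. The median of the 9 log2 differences was 0.95, against -0.01 over all genes. With UPF1-2, TRIB3 and CEBPB alone of the 9 were called higher, 2 of 9 where 0.279% of all genes were. By limma 6 of 9 had an unadjusted p under 0.05, and the estimate for DDIT3 (0.47), which was not called, was close to that for CEBPB (0.46). The comparisons share the GFP libraries, so their values are given side by side and not as independent evidence of each other.

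**Figure D1:**
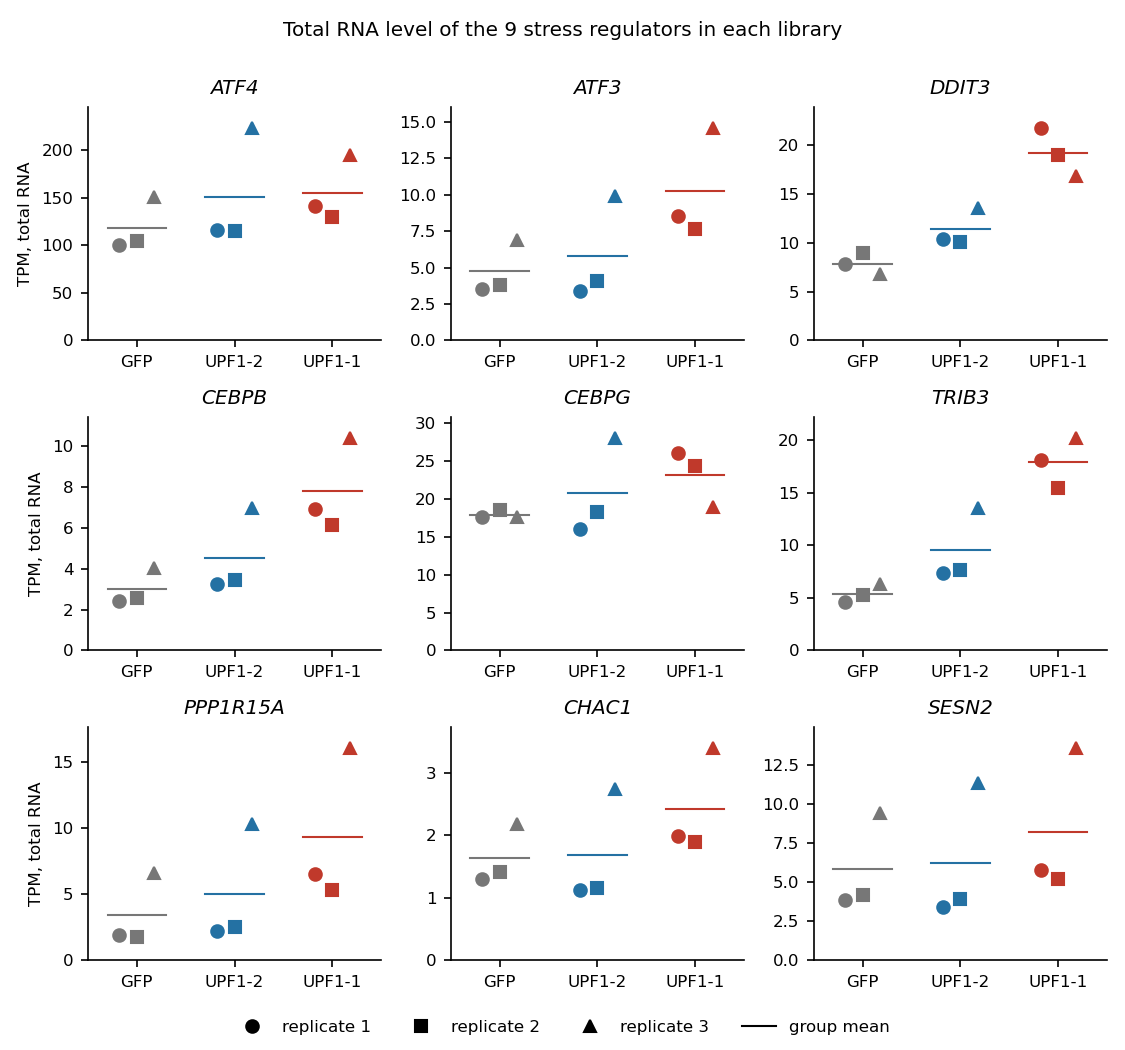
Total RNA level in TPM (vertical axes, starting at 0) of each regulator in the 3 GFP, 3 UPF1-2 and 3 UPF1-1 libraries; symbols mark the replicate and lines the group mean. TRIB3 and DDIT3 separate all 3 lines with no overlap, while replicate 3 lies highest in every line for ATF4, ATF3, CEBPB, TRIB3, PPP1R15A, CHAC1 and SESN2.

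ATF4 (ENSG00000128272), the transcription factor at the head of the pathway, was at 100.1, 105 and 151 TPM in the GFP line, 142, 129.6 and 195 TPM in the UPF1-1 line and 116, 115 and 223 TPM in the UPF1-2 line. Ranges overlapped between all lines, and replicate 3 was highest in each. Within the replicate number the UPF1-1 line was higher by 0.32, 0.26 and 0.32 on the log2 scale and the UPF1-2 line by 0.32, 0.21 and 0.29. The fitted differences were 0.30 ± 0.05 (SE) with UPF1-1, adjusted p = 0.00673, and 0.27 ± 0.05 with UPF1-2, adjusted p = 0.0765 by limma. The call with UPF1-1 was lost without replicate 2 (adjusted p = 0.116). The lines with UPF1-1 and UPF1-2 differed by 0.03, with a 95% interval of -0.09 to 0.14. ATF4 mRNA was thus the member for which the UPF1 lines lay closest together.

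ATF3 (ENSG00000162772), a bZIP factor induced by ATF4, was at 3.52, 3.80 and 6.92 TPM in GFP total RNA. It reached 8.52, 7.64 and 14.6 TPM with UPF1-1, all above the GFP libraries, and 3.42, 4.06 and 9.88 TPM with UPF1-2, which overlapped them. The rise with UPF1-1 was 0.95 ± 0.06 (SE), adjusted p = 5.65e-05 by limma, rank 17 of 9325 from the top. With UPF1-2 the difference was 0.15 ± 0.06, adjusted p = 0.363. UPF1-1 stood above UPF1-2 by 0.80 ± 0.06, adjusted p = 0.000493, in all 3 replicate numbers (0.91, 0.71 and 0.77).

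DDIT3 (ENSG00000175197) encodes CHOP, a C/EBP-family factor linked to cell death under prolonged stress. Its levels fell into 3 steps with no overlap: 7.83, 8.95 and 6.79 TPM with GFP, 10.4, 10.1 and 13.6 TPM with UPF1-2, and 21.7, 19.0 and 16.8 TPM with UPF1-1. It rose by 1.15 ± 0.08 (SE) with UPF1-1, adjusted p = 9.16e-05 by limma. With UPF1-2 it was 0.47 ± 0.08 higher, adjusted p = 0.0561, and the differences within the numbers spread from 0.25 to 0.67. The UPF1 lines differed by 0.67 ± 0.08, adjusted p = 0.00366, or 0.0571 without replicate 2.

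CEBPB (ENSG00000172216), a bZIP partner of ATF4 and of CHOP, was at 2.41, 2.56 and 4.03 TPM with GFP, 3.24, 3.46 and 6.96 TPM with UPF1-2 and 6.94, 6.14 and 10.4 TPM with UPF1-1. The UPF1-1 libraries lay above all GFP libraries. The rise was 1.16 ± 0.06 (SE) with UPF1-1, adjusted p = 1.68e-05, and 0.46 ± 0.06 with UPF1-2, adjusted p = 0.024 by limma. Leaving out any 1 replicate number ended the call with UPF1-2 (adjusted p = 0.177, 0.33 and 0.0621), although the differences within the numbers were close, at 0.47, 0.45 and 0.44. The UPF1 lines differed by 0.70 ± 0.06, adjusted p = 0.000788.

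CEBPG (ENSG00000153879), a C/EBP protein without a transactivation domain of its own that pairs with ATF4, went its own way. It was at 17.6, 18.6 and 17.6 TPM with GFP, 26.1, 24.4 and 18.9 TPM with UPF1-1 and 16.0, 18.2 and 28.0 TPM with UPF1-2. Replicate 3 was the lowest library of the UPF1-1 line and the highest of the UPF1-2 line. The differences from GFP were 0.26 ± 0.12 (SE) with UPF1-1, adjusted p = 0.164, and 0.14 ± 0.12 with UPF1-2, adjusted p = 0.705 by limma. UPF1-1 exceeded UPF1-2 by 0.40 and 0.29 in numbers 1 and 2 and was below it in number 3 (-0.32). Without replicate 3 CEBPG was called higher in UPF1-1, by 0.36 over GFP and 0.32 over UPF1-2. Raw TPM ranges of 5 members (ATF3, DDIT3, CEBPB, CEBPG and TRIB3) lay wholly above GFP with UPF1-1, as did those of 6.62% of all genes, and CEBPG was the one among them that the test did not call.

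TRIB3 (ENSG00000101255), whose pseudokinase product binds ATF4 and CHOP and restrains them, showed the largest change of the 9. It was at 4.62, 5.30 and 6.32 TPM with GFP, 7.40, 7.61 and 13.5 TPM with UPF1-2 and 18.1, 15.5 and 20.2 TPM with UPF1-1. No library of one line overlapped another. It rose by 1.55 ± 0.06 (SE) with UPF1-1, adjusted p = 6.99e-06, rank 3 of 9325, and by 0.69 ± 0.06 with UPF1-2, adjusted p = 0.00322 by limma, or 0.078 without replicate 2. UPF1-1 stood above UPF1-2 by 0.86 ± 0.06, adjusted p = 0.000493. Only TRIB3 and DDIT3 had non-overlapping TPM between UPF1-2 and GFP (2 members, against 0.997% of all genes) and between UPF1-1 and UPF1-2 (again 2 members, against 1.42%).

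PPP1R15A (ENSG00000087074) encodes GADD34, which brings protein phosphatase 1 to eIF2 and so reverses its phosphorylation. It was at 1.94, 1.81 and 6.65 TPM with GFP, 2.21, 2.56 and 10.4 TPM with UPF1-2 and 6.56, 5.37 and 16.1 TPM with UPF1-1. Replicate 3 of GFP lay above replicates 1 and 2 of UPF1-1, so the raw ranges overlapped, while within each number UPF1-1 was higher by 1.35, 1.30 and 1.17. The rise was 1.28 ± 0.07 (SE), adjusted p = 2.7e-05 by limma. With UPF1-2 the difference was 0.36 ± 0.07, adjusted p = 0.0996, and UPF1-1 exceeded UPF1-2 by 0.92 ± 0.07, adjusted p = 0.000581.

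The effectors CHAC1 (ENSG00000128965), which encodes a glutathione-degrading enzyme, and SESN2 (ENSG00000130766), which encodes a leucine-sensing inhibitor of mTORC1 signalling, moved little. CHAC1 was at 1.30, 1.41 and 2.18 TPM with GFP, 1.99, 1.89 and 3.39 TPM with UPF1-1 and 1.13, 1.16 and 2.75 TPM with UPF1-2. SESN2 was at 3.89, 4.20 and 9.45 TPM with GFP, 5.79, 5.22 and 13.6 TPM with UPF1-1 and 3.42, 3.94 and 11.4 TPM with UPF1-2. Lines overlapped for both genes, and replicate 3 was highest throughout. With UPF1-1 CHAC1 rose by 0.35 ± 0.07 (SE), adjusted p = 0.0126, and SESN2 by 0.34 ± 0.06, adjusted p = 0.00914 by limma. With UPF1-2 the differences were -0.05, with a 95% interval of -0.21 to 0.11, and -0.03, with an interval of -0.17 to 0.12. UPF1-1 exceeded UPF1-2 by 0.40 for CHAC1 and 0.37 for SESN2, adjusted p = 0.0143 and 0.0138. Both rises over GFP missed the threshold without replicate 1 or 2 (adjusted p between 0.0542 and 0.107). The isoform difference of SESN2 missed it without any 1 number, and that of CHAC1 without replicate 2 or 3.

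**Figure D2:**
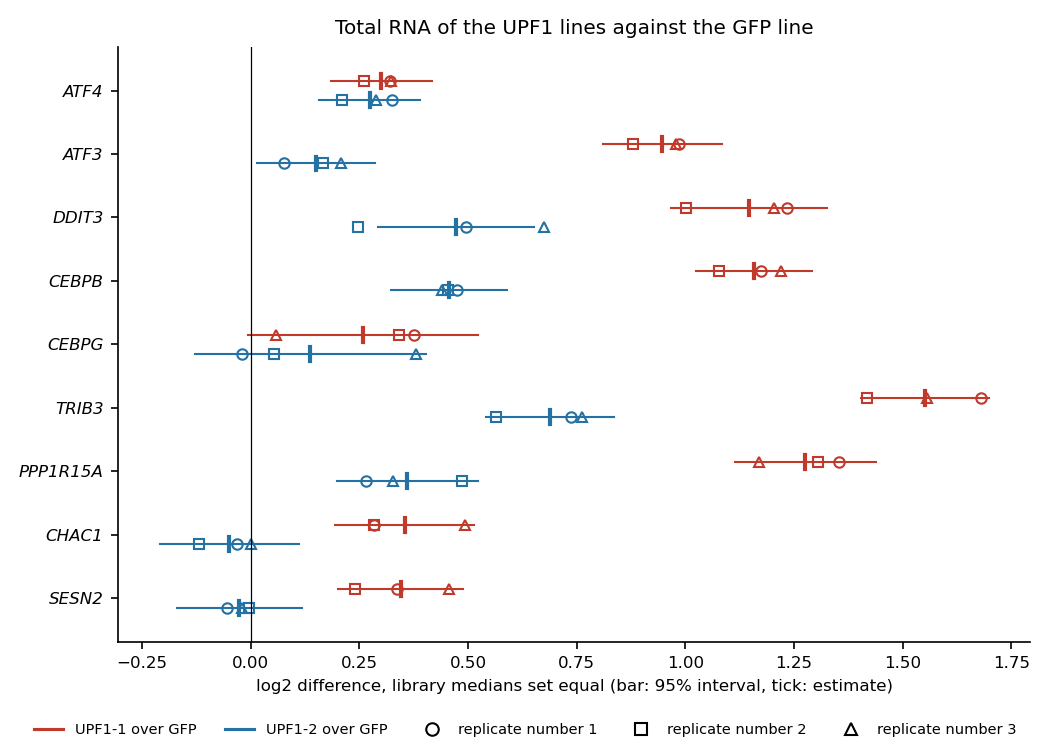
Log2 difference in total RNA of UPF1-1 (red) and UPF1-2 (blue) over GFP for each regulator, with library medians set equal; open symbols are the 3 replicate numbers, ticks the limma estimate and bars its 95% interval. Every UPF1-1 interval except that of CEBPG lies above 0, and the ATF4 estimates of both isoforms lie closest, at 0.30 and 0.27.

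Set directly against each other, the UPF1 lines differed in 7 of 9 regulators, all higher with UPF1-1, where 5.49% of all genes were called higher and 4.02% lower. ATF4 and CEBPG were the members not called. The UPF1 mRNA itself was 0.31 ± 0.07 (SE) higher with UPF1-1 than with UPF1-2, with an adjusted p of 0.0363 by limma that was 1 without the replicate block, and its part in these differences was not tested.

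The fit without the replicate block, medians still equal, called fewer members. With UPF1-1 over GFP it called TRIB3 and CEBPB (2 of 9), and 0 with UPF1-2 over GFP and between the isoforms, where 3 and 5 members had an unadjusted p under 0.05 by limma. Over all 9325 genes it called 16 with UPF1-1 over GFP, 3 with UPF1-2 over GFP and 0 between the isoforms, so few genes of any kind were called. The fitted differences were the same by construction. In the authors' deposited table of sleuth q values, TRIB3 (q = 4.8e-14), CEBPB (6.93e-06) and ATF3 (0.000461) passed 0.05 with UPF1-1 over GFP, 3 members among 45 genes or 0.368% of those with a q. PPP1R15A (q = 0.211) and DDIT3 (q = 0.638) did not pass in the authors' deposited table, where the standard errors of their effects were 0.31 on the natural log scale against 0.13 for TRIB3. Between the isoforms the authors' deposited table passed TRIB3 (q = 0.00337) and ATF3 (q = 0.0081), 2 members among 17 genes or 0.139%. With UPF1-2 over GFP it passed 0 members among 4 genes or 0.0327%, and TRIB3 had q = 0.0995 there.

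Replicate 3 moved the regulators apart from the constructs, and in opposite directions. In raw TPM, PPP1R15A was 3.55-fold, 2.70-fold and 4.34-fold higher in replicate 3 than in the mean of replicates 1 and 2, in GFP, UPF1-1 and UPF1-2 total RNA. With library medians set equal its shift was 1.12, 0.96 and 1.07 on the log2 scale, and that of SESN2 was 0.66, 0.83 and 0.67. These shifts exceed what 97.3% and 91.7% of all genes showed. ATF3 shifted by 0.37, 0.41 and 0.45. DDIT3 went the other way, at -0.75, -0.67 and -0.45, as did CEBPG at -0.51, -0.81 and -0.14. PPP1R15A thus varied between replicates on a scale close to its difference between the UPF1-1 and GFP lines (1.28). For DDIT3, CEBPG and TRIB3 the centred shift was below 0 in all 3 lines, whereas for the other 6 members it was above 0.

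**Figure D3:**
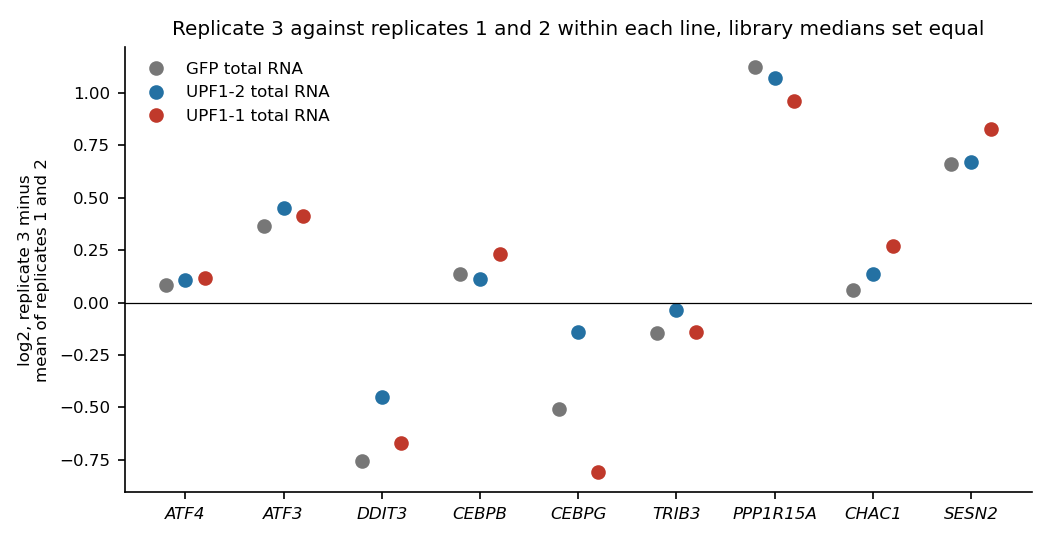
Log2 difference between replicate 3 and the mean of replicates 1 and 2 in total RNA of each line, with library medians set equal; each point is 1 line. PPP1R15A and SESN2 lie above 0.6 in all lines, and DDIT3 below -0.4.

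Genes of the same pathway outside the 9 were counted in lists. With UPF1-1 over GFP, 8.38% of all genes tested were called higher and 7.79% lower, and the list counts are to be read beside these shares. Of 17 tested genes of the eIF2 kinases, eIF2, the exchange factor eIF2B and the eIF2 phosphatase, 2 rose and 3 fell with UPF1-1. EIF2B5, the catalytic subunit of eIF2B, rose by 0.62 and EIF2S2, the beta subunit of eIF2, by 0.36, while the kinase genes EIF2AK2 (-0.31) and EIF2AK4 (-0.27) and the phosphatase gene PPP1CC (-0.23) fell. Adjusted p values by limma lay between 0.0142 and 0.0476. The list's median was 0.01. Of 21 other bZIP factors 5 rose, led by XBP1 (1.19), the factor of another arm of the unfolded protein response, NFIL3 (0.45) and JUNB (0.38), and CEBPZ, which is no bZIP despite its name, fell by 0.40. Their median was 0.10.

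Of 39 further target genes of ATF4 or CHOP, 9 rose and 2 fell with UPF1-1, with a median of 0.10, beside 8.38% and 7.79% of all genes. HERPUD1, which acts in the clearance of ER proteins, rose by 1.21, the amino acid transporter subunit gene SLC3A2 by 0.51 and the tRNA synthetase gene NARS by 0.43. EPRS, another tRNA synthetase gene, and TXNIP, an inhibitor of thioredoxin, each fell by 0.32. Among the amino acid synthesis genes of the list, ASNS (0.13, adjusted p = 0.105) and PHGDH (-0.01, adjusted p = 0.892) did not pass by limma, and were chosen after their values were seen. ER chaperone and unfolded protein response genes had 11 of 22 higher and 0 lower, with a median of 0.20. They were led by XBP1, MANF (0.89), a secreted ER protein, and the disulfide isomerase gene PDIA4 (0.70). XBP1 and ATF6 are also in the list of other bZIP factors, and DNAJC3 is also in the eIF2 list. NMD targets other than the 9 had 10 of 25 higher and 3 lower, with a median of 0.11. GADD45A, a growth arrest gene, rose by 0.85, the cell cycle inhibitor gene CDKN1A by 0.60 and the snoRNA host SNHG15 by 0.58, while UPF3B, itself an NMD factor gene, fell by 0.51. With UPF1-2, 0 genes of the first 4 of these lists were called by limma, with 3, 2, 10 and 7 at an unadjusted p under 0.05, and 1 of 25 NMD targets, the snoRNA host SNHG7 (0.45), rose. Of all genes, 0.279% were called higher and 0.0965% lower with UPF1-2. The median of the 9 regulators with UPF1-2 was 0.27. Between the isoforms, 10 of 39 ATF4 or CHOP targets were higher with UPF1-1 and 1 lower, 6 of 22 ER genes were higher and 0 lower, and 0 of 17 eIF2 genes were called by limma, with 3 at an unadjusted p under 0.05. Of all genes, 5.49% were called higher and 4.02% lower there.

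**Figure D4:**
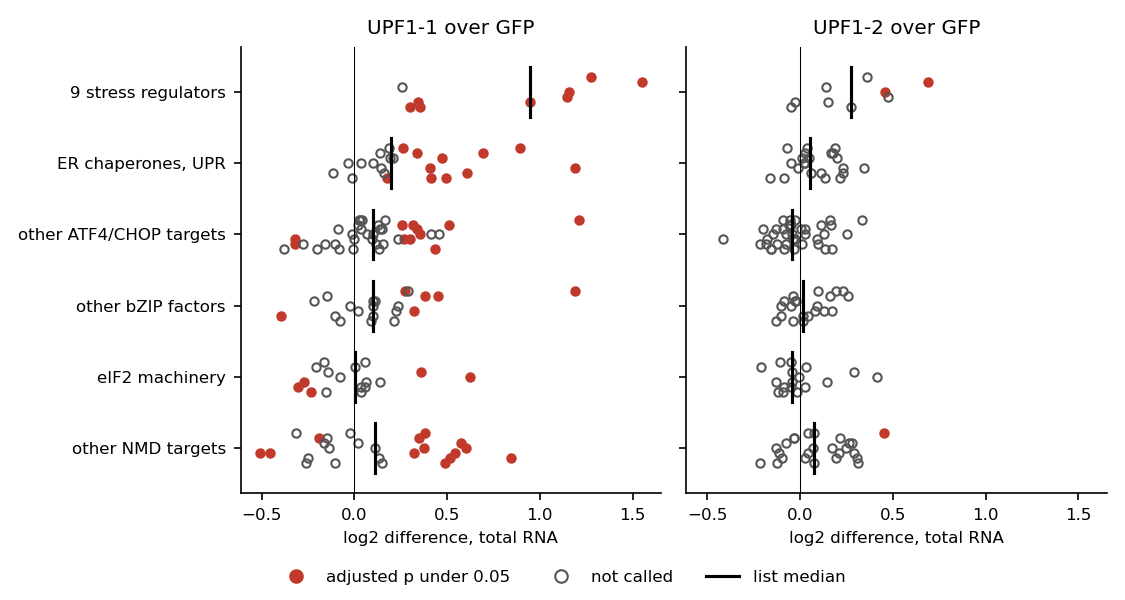
Log2 difference in total RNA over GFP (library medians set equal) for the genes of each list, with UPF1-1 on the left and UPF1-2 on the right; filled points passed an adjusted p of 0.05 and bars are list medians. The 9 regulators have a median of 0.95 with UPF1-1, and those of the other lists lie between 0.01 and 0.20.

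In the UPF1 IPs ATF3, SESN2, DDIT3, TRIB3 and CEBPG mRNA were recovered more, relative to the library medians, and CEBPB and PPP1R15A mRNA less, with both isoforms. The deposited ratio of IP to total TPM was above 1 for all 9 in all 6 IPs, but so was that of most genes: the median gene had a mean ratio of 7.07 with UPF1-1 and 6.98 with UPF1-2. Recovery was therefore read relative to the library medians, where 5 of 9 members were called higher and 2 lower with each isoform. With UPF1-1, 74.7% of all genes were called, 30.8% as higher and 43.9% as lower. With UPF1-2 it was 75.7%, 31.5% as higher and 44.2% as lower, so 7 of 9 members called is near the background. Without equal medians all 9 were called higher with both isoforms, but so were 11464 (UPF1-1) and 11485 (UPF1-2) of 11969 genes.

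ATF3, SESN2, DDIT3 and TRIB3 mRNA were recovered above the median gene with both isoforms. The deposited ratios of ATF3 were 11.4, 10.4 and 14.6 with UPF1-1 and 15.8, 13.4 and 11.7 with UPF1-2. In the fit its recovery was 0.96 ± 0.07 (SE) and 1.09 ± 0.07, adjusted p = 3.68e-06 and 1.72e-06 by limma, above 93.3% and 93.9% of genes. By the mean deposited ratio ATF3 lay above 84.6% and 89.0% of genes. SESN2 had ratios of 10.9, 11.3 and 12.3 and of 15.3, 14.1 and 12.2, and recoveries of 0.87 ± 0.07 and 1.12 ± 0.07. TRIB3 had ratios of 10.4, 11.6 and 10.5 and of 12.2, 12.6 and 8.92, and recoveries of 0.84 ± 0.12 and 0.87 ± 0.12. SESN2, which rose little in total RNA, thus had a recovery close to that of TRIB3, which rose most, with UPF1-1 and above it with UPF1-2 (a difference not tested).

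DDIT3 had ratios of 9.70, 10.4 and 9.82 with UPF1-1 and 16.5, 16.1 and 10.4 with UPF1-2, and the ranges overlapped in 1 library of each group. Its recoveries were 0.72 ± 0.13 (SE) and 1.22 ± 0.13, adjusted p = 0.00112 and 4.65e-05 by limma. CEBPG had ratios of 9.18, 8.38 and 16.3 with UPF1-1 and 8.25, 7.23 and 6.51 with UPF1-2, and the UPF1-1 range lay wholly above. Its recoveries were 0.84 ± 0.10 and 0.31 ± 0.10, adjusted p = 8.4e-05 and 0.0207. The CEBPG call with UPF1-2 held in 6 of 12 alternatives. It was lost without replicate 1, without replicate 2, without the block, with the filter at 5 TPM, with a pseudocount of 0.1 TPM and with upper quartiles set equal. Without the block the DDIT3 call with UPF1-1 was lost too (adjusted p = 0.103).

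CEBPB and PPP1R15A, which rose in UPF1-1 total RNA, were recovered below the median gene, CEBPB further below it than PPP1R15A. CEBPB had deposited ratios of 2.06, 1.88 and 2.13 with UPF1-1 and 2.51, 2.52 and 2.32 with UPF1-2 and only 9.49% and 12.4% of genes had a lower mean ratio. Its recovery relative to the medians was -1.59 ± 0.09 (SE) and -1.33 ± 0.09, adjusted p = 1.03e-06 and 2.44e-06 by limma. PPP1R15A had ratios of 3.53, 3.34 and 3.82 and of 5.05, 3.70 and 3.51, and 20.2% and 24.5% of genes had a lower mean ratio. Its recoveries were -0.80 ± 0.08 and -0.67 ± 0.08, adjusted p = 3.59e-05 and 9.41e-05 by limma, or 0.138 and 0.202 without the block. By recovery in the fit, 9.47% and 13.2% of genes lay below CEBPB, and 25.5% and 29.9% below PPP1R15A. ATF4, the most abundant member, and CHAC1, the least abundant, were not called. Without replicate 3 ATF4 was called higher with UPF1-2, as were 3840 of 11745 genes. ATF4 had ratios of 5.95, 6.74 and 6.13 with UPF1-1 and 7.04, 7.57 and 4.84 with UPF1-2, and CHAC1 had 6.28, 6.68 and 6.65 and 8.13, 8.02 and 6.40. The recovery of ATF4 was 0.08, with a 95% interval of -0.23 to 0.39, and 0.14, with an interval of -0.17 to 0.45. That of CHAC1 was -0.09, with an interval of -0.29 to 0.11, and 0.01, with an interval of -0.19 to 0.21.

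**Figure D5:**
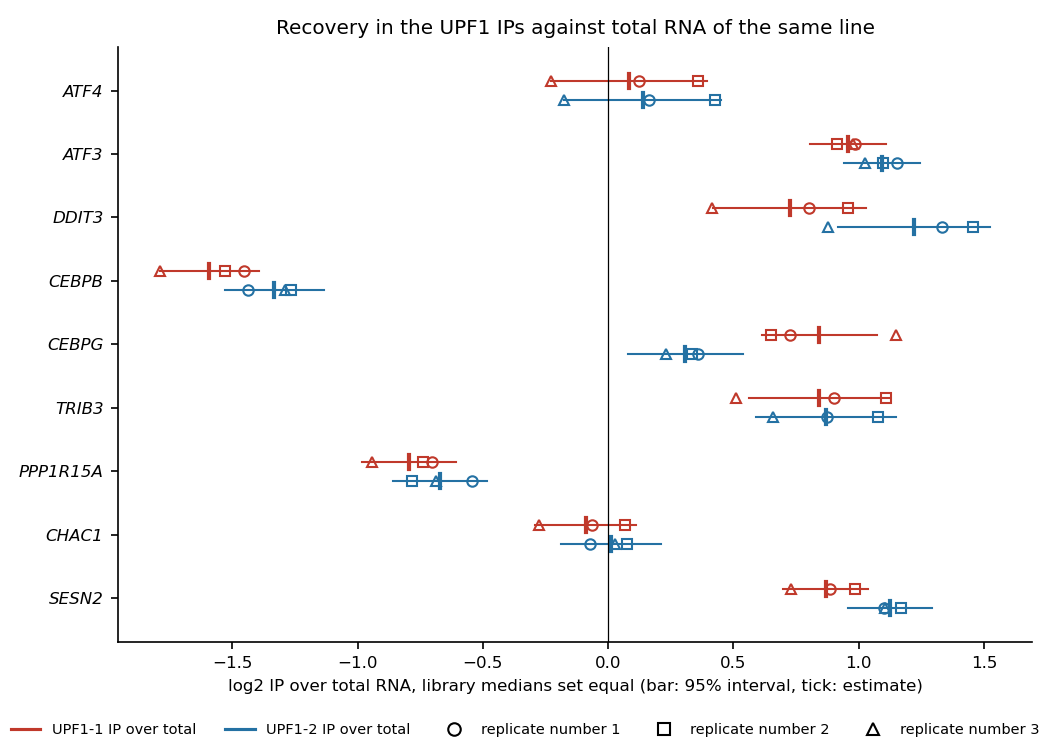
Log2 ratio of IP to total RNA with library medians set equal for each regulator with UPF1-1 (red) and UPF1-2 (blue); open symbols are the 3 replicate numbers, ticks the limma estimate and bars its 95% interval. CEBPB and PPP1R15A lie below 0 and ATF3, SESN2, DDIT3, TRIB3 and CEBPG above 0 with both isoforms.

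Recovery was then compared between the isoforms, as the difference of their ratios of IP to total RNA. The fit paired each IP with the total RNA of its isoform and number, and did not pair the isoforms by number. CEBPG was called higher with UPF1-1, by 0.54 ± 0.14 (SE), adjusted p = 0.0489 by limma, 1 of 9 members where 4.43% of all genes were called higher and 6.27% lower. With 10.7% of all genes called in either direction, 1 of 9 is near the background. The CEBPG difference was 0.37, 0.32 and 0.92 in the 3 numbers, and 0.35 without replicate 3. The call was lost without the block (adjusted p = 0.775) and without replicate 1 (0.32) or 2 (0.0965). DDIT3 had -0.50 ± 0.19, adjusted p = 0.124, with -0.53, -0.50 and -0.46 in the numbers, and passed without replicate 3 (adjusted p = 0.0343). In a fit chosen after seeing the data, which compared recoveries within the number, DDIT3 was called lower with UPF1-1 (-0.50 ± 0.08, adjusted p = 0.0065 by limma) and CEBPG higher (0.54 ± 0.12, adjusted p = 0.0205), where 10.1% of all genes were called higher and 14.9% lower. SESN2 missed the threshold there (-0.26 ± 0.08, adjusted p = 0.0608), and the interval of ATF4 narrowed to -0.24 to 0.13. The DDIT3 verdict thus depends on whether the isoforms are paired by number and, where they are not, on whether replicate 3 is included. In the fit without that pairing, the difference was -0.03 for TRIB3, with a 95% interval of -0.42 to 0.36, and for ATF4 -0.05, with an interval of -0.50 to 0.39. There the intervals were narrower for ATF3 (-0.35 to 0.08) and PPP1R15A (-0.39 to 0.14), and the remaining differences were -0.10 for CHAC1, -0.26 for CEBPB and -0.26 for SESN2. TRIB3 was at 193 ± 16.2 TPM (SD, n = 3) in the UPF1-1 IP and 102 ± 16.2 TPM in the UPF1-2 IP, beside 17.9 ± 2.37 and 9.51 ± 3.47 TPM in total RNA of the same lines.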

How the data were processed

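Total RNA and IP libraries were ribosomal RNA-depleted, per the labels' protocols. The submitters' processing notes name cutadapt, kallisto, sleuth and hg19 but give no version. Per the file headers, the authors deposited TPM per library, ratios of IP to total TPM, log2 fold changes, and sleuth q-values with effects on the natural log scale. The deposited ratios equalled recomputed ones in 100% of entries (tolerance 1e-06). Read depth is not given, so no counting interval was possible.

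From TPM, log2(TPM + 0.5) was fitted with limma 3.58.1 (R 4.3.3, trend, 2-sided, Benjamini-Hochberg over 9325 or 11969 genes) after library medians were set equal. The replicate number (total RNA, 9 libraries) or the pair of IP and total RNA with the same isoform and number (12 libraries) was a block. Deviations of same-numbered libraries correlated at 0.70 to 0.95 in total RNA (9 pairs) and 0.57 to 0.91 in the IP fit (18 pairs). Numbers 1 and 2 correlated nearly as well (0.59 to 0.80), so the values set replicate 3 apart. The code was tested on simulated data. Nothing says that replicates were separate cultures, so a p-value reflects only the scatter of these samples, which may be technical.

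Members, lists and fits were chosen with earlier results of these data known. Named were all members, UPF1 and, per list and comparison, up to 3 called genes in each direction with the largest differences. Of the listed genes, 14 symbols, such as PPP1CB and CEBPA, were not matched, ERO1A being present under its older symbol, ERO1L. Alternatives changed the block, centring, pseudocount, filter, trend and replicates. A fit of the recovery difference with IP effects by number was added after seeing the data.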

Additional observations from a re-analysis of the deposited data

Results flagged for a closer look

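Recovery of CEBPG mRNA differed between the isoforms by the test of the difference itself, at 0.54 on the log2 scale (UPF1-1 minus UPF1-2) with a limma adjusted p of 0.0489. In 4 of 13 alternatives it passed the threshold, and its value ranged from 0.35 to 0.65. Total RNA of CEBPG in replicate 3 was 18.9 TPM with UPF1-1 and 28.0 TPM with UPF1-2, in the reverse order of replicates 1 and 2, and this replicate gave the largest difference in recovery (0.92).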

How the results depend on the processing

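Depth is unknown, and the tests rest on 3 libraries a group. Members called by limma with UPF1-1 over GFP, 8 with the replicate block and equal medians, were 2 with no replicate block, 5 with no centring and 0 with neither (4 members at an unadjusted p under 0.05), and 5 to 9 when 1 replicate number was left out. With UPF1-2 over GFP, 2 became 0, 0 and 0 under these settings (3, 5 and 2 unadjusted), 4 with upper quartiles equal, 4 with the filter at 5 TPM, and 0 to 1 without 1 number. Between the isoforms 7 became 0 with no replicate block and 0 with neither (5 and 3 unadjusted), and 4 to 6 without 1 number. The single call of the recovery difference was lost (0 members) with no replicate block, no centring, neither, pseudocounts of 0.1 and 1, no filter and no trend (0 to 3 unadjusted), and was 0 to 2 without 1 number; with IP effects by number inside the replicate block, chosen after seeing the data, 2 members were called, CEBPG and DDIT3. Member counts of IP over total RNA stayed within 1.5 times of 7 in all alternatives.

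Directions reversed as follows, mostly for members near 0. With no centring, with and without the block, IP over total RNA became 0.97 (UPF1-1) and 1.2 (UPF1-2) for CEBPB, 1.77 and 1.86 for PPP1R15A and 2.47 (UPF1-1) for CHAC1; SESN2 with UPF1-2 over GFP became 0.0023 and the TRIB3 recovery difference 0.0017. At 5 TPM SESN2 with UPF1-2 over GFP was 0.0029, ATF4 between isoforms -0.0048, CHAC1 in the UPF1-2 IP -0.087 and the TRIB3 recovery difference 0.0086. With upper quartiles equal, ATF4 between isoforms was -0.015, CHAC1 in the UPF1-2 IP -0.11, and the recovery differences of ATF4 and TRIB3 0.028 and 0.052. ATF4 recovery was -0.12 (UPF1-1) and -0.085 (UPF1-2) at a pseudocount of 0.1, and CHAC1 in the UPF1-2 IP -0.029 at 1. Leaving out 1 number gave ranges that crossed 0: -0.018 (without replicate 1) to 0.32 for CEBPG between isoforms, -0.055 (without replicate 2) to 0.24 and -0.015 (without replicate 2) to 0.28 for ATF4 recovery with UPF1-1 and UPF1-2, -0.030 (without replicate 2; -0.012 without replicate 3) to 0.047 for CHAC1 in the UPF1-2 IP, and -0.057 to 0.037 and -0.15 to 0.010 (both without replicate 3) for the recovery differences of TRIB3 and CHAC1. The cause was not tested, except that centring moves IP values by the shift of the library medians, 2.56 and 2.53.

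Genes called over the whole table with UPF1-1 over GFP, 1507 (781 higher, 726 lower), were 16 with no replicate block, 301 with no centring (266 higher, 35 lower), 2 with neither, 715 at 5 TPM, where fewer genes were tested, and 206 to 1141 without 1 number; upper quartiles gave 638 higher and 976 lower. With UPF1-2 over GFP 35 became 3, 6 and 1, and 3 to 11 without 1 number. Between isoforms 887 (512 and 375) became 0, 89 and 0 (477 and 89 unadjusted for the zeros), 452 at 5 TPM and 17 to 451 without 1 number, and upper quartiles gave 347 and 591. The recovery difference, 1280 (530 and 750), became 0, 0 and 0 (846, 1878 and 340 unadjusted), 810 at a pseudocount of 1, 793 with no trend, 2997 (1212 and 1785) with IP effects by number and 0 to 1104 without 1 number, and upper quartiles gave 846 and 459.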

Other observations

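Other transcripts of the pathway were recovered unequally in the IPs. Relative to the library medians, where the median gene had -0.16 with UPF1-1 and -0.15 with UPF1-2, recovery differed between kinase mRNAs. That of EIF2AK2, which senses double-stranded RNA, had 1.49 with UPF1-1 and 1.08 with UPF1-2. That of EIF2AK3, the ER kinase PERK, had -1.04 and -1.48. DDIT4, an inhibitor of mTORC1 signalling, had 0.99 and 1.24. HERPUD1, which rose with the regulators in total RNA, had -1.12 and -1.14, and all these passed limma's adjusted p of 0.05. Of 42 ATF4 or CHOP targets outside the 9, 10 were recovered less with UPF1-1 than with UPF1-2 and 2 more, where 6.27% and 4.43% of all genes were. The largest such differences were -0.86 for the asparagine synthetase gene ASNS, -0.73 for PHGDH, which starts serine synthesis, and -0.65 for the alanyl-tRNA synthetase gene AARS, with adjusted p of 0.0154, 0.0154 and 0.0208 by limma. Total RNA, the denominator of recovery, was higher with UPF1-1 than with UPF1-2 for ASNS (0.29) and AARS (0.33). Their adjusted p was 0.0143 and 0.0107 by limma. PHGDH (0.13, adjusted p = 0.161) was not called there, and the part of total RNA in these recovery differences was not tested. For this isoform difference in recovery, no list gene and no member was called without the block, and 846 of 11969 genes had an unadjusted p under 0.05 by limma.

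Of the 5 genes whose pattern over the 9 total RNA libraries was most like the mean of the 9 regulators, once replicate number means were removed, (3247 genes searched, with a mean of at least 5 TPM), WRNIP1, FAM83D, RNF4 and HERPUD1 carry a gene name. Their Pearson's r lay between 0.993 and 0.998, as a description over points that share libraries and 3 group means. WRNIP1 and RNF4 spanned less than HERPUD1 did, as their UPF1-1 libraries lay 0.14 to 0.20 above the mean of the lines and those of HERPUD1 0.64 to 0.74 on the log2 scale. Among the members, which are part of that mean, DDIT3 had r = 0.993 with it and CEBPG 0.67.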
